A study of Mus musculus with 22 samples.

Results

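The lists of hnRNP A1 sites in the spinal cords of 10 mice held 136207 entries in total. Of these, 2565 (1.88%) lay in a 5′ untranslated region (5′ UTR), the stretch of an mRNA ahead of its start codon. A site, called a footprint here, is an interval of the genome obtained by crosslinking and immunoprecipitation followed by sequencing (CLIPseq) of RNA bound to hnRNP A1. A place found in several mice was counted once for each mouse. Overlapping footprints of all mice merged into 82220 regions, and 1745 of these held a footprint in a 5′ UTR. A footprint was taken as a 5′ UTR footprint when its midpoint lay in an annotated 5′ UTR of the GRCm38 assembly and in no annotated coding sequence or 3′ UTR. The tissue was the spinal cord of female C57Bl/6 mice, and each of the 10 immunoprecipitations came from a different mouse. The 3 naïve mice were not immunised. The other 7 mice had experimental autoimmune encephalomyelitis (EAE), a model of multiple sclerosis in which immunisation brings on inflammation and demyelination of the cord. They had received the myelin peptide MOG(35-55), emulsified in Freund's complete adjuvant, together with pertussis toxin, at 12 weeks of age by the sample labels (8 weeks by the series' design text), and were killed 15 days after clinical onset, with naïve mice matched for age. They were grouped by clinical score into 3 mice with mild EAE (scores 1.0 to 1.5) and 4 mice with severe EAE (2.5 to 3.0). Every lysate was of whole cord, so neurons, glia and invading immune cells contributed together.

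hnRNP A1 is an RNA-binding protein that is mainly nuclear, shuttles to the cytoplasm, and is known for its part in splice site choice. It binds best to sequences that hold the trinucleotide UAG. In 5′ UTRs it has been described as a factor that acts on internal ribosome entry sites, which let ribosomes start without scanning from the cap. The 5′ UTR is scanned by the small ribosomal subunit from the cap to the start codon, and upstream AUG triplets, stem-loops such as the iron responsive element, and GC-rich structure all change how well the coding sequence is translated.

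The sequences below are RNA sequences read from the GRCm38 genome on the strand of the gene, 5′ to 3′. The first set gives examples of stretches shared by footprints of several mice, with UAG in capitals where it occurs. They come from genes with a 5′ UTR footprint in 7 or more mice, and not every such gene is shown. Stretches shared by as many mice in other genes are not listed. Where a shared stretch was longer than the part shown, that part was placed around a UAG if the stretch held one. The examples range from stretches with UAG in Gprasp1 and Gprasp2 to GC-rich stretches without it.
Thra, 7 mice, chr11:98753303-98753332, plus strand: ggacaagucucugaagacuucccagccccu
Lgi3, 7 mice, chr14:70530960-70530989, plus strand: gaguugcggcagcccggagguggaagcucu
Cadm2, 6 mice, chr16:67620668-67620697, minus strand: cgcgagcggcggugcugccagcuugcugcc
Slc1a2, site 1, 4 mice, chr2:102658828-102658857, plus strand: cagcacacgcgcacgcacgcacacacuccc
Slc1a2, site 2, 4 mice, chr2:102659141-102659170, plus strand: cgcuaaagggcuuacccaggaggggggugc
Gprasp1, 5 mice, chrX:135796272-135796301, plus strand: agaacacccaggaaUAGgagucggacgugg
Gprasp2, 3 mice, chrX:135839198-135839227, plus strand: agaacacccaggaaUAGgagucggacgugg

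The second set shows footprints of ribosomal protein mRNAs that ended with the exon directly after the start codon, which is in capitals. In each of these genes the exon stops at that codon, so the footprint stops at an exon edge.
Rps25, 4 mice, chr9:44407737-44407757, plus strand: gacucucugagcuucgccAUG
Rps20, 3 mice, chr4:3835484-3835510, minus strand: cggucaggaagccgcgccucagccAUG
Rpl37a, 3 mice, chr1:72711301-72711323, plus strand: ugggcuuggguuccggcgacAUG
Rps15, 3 mice, chr10:80292466-80292483, plus strand: cgaguaaccgccaagAUG

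The third set gives stretches with UAG (capitals) that were shared by footprints of naïve mice only (Flt1, Tle2, Cd81) or of EAE mice only (Wnk1, Slc15a3, Ftl1, Rpl32). The Rpl32 stretch lies wholly inside Snora7a, a small nucleolar RNA on the same strand, and cannot be assigned to the mRNA.
Flt1, 2 naïve mice, chr5:147725946-147725975, minus strand: acacucccgggaggUAGugcUAGugguggu
Tle2, 2 naïve mice, chr10:81575507-81575536, plus strand: ugcaccccagcucUAGcuUAGcaccccaaa
Cd81, 2 naïve mice, chr7:143052813-143052842, plus strand: caaagagaUAGugacucucgcgccuccggc
Wnk1, 3 EAE mice, chr6:120037718-120037747, minus strand: uucggagcccgccgUAGgagcgcugcccag
Slc15a3, 4 EAE mice, chr19:10842654-10842683, plus strand: gagaaggggacaauUAGaaaaggcaguuaa
Ftl1, 3 EAE mice, chr7:45459668-45459697, minus strand: cugccuucagcuccUAGgaccagucugcac
Rpl32, 5 EAE mice, chr6:115808070-115808099, minus strand: cgucuggagagUAGcUAGuauucuuccagc

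The lists of the mice differed widely in length. They held 17119 to 17494 footprints in the naïve mice, 9751 to 24433 in mild EAE, and 2670, 209, 673 and 31870 in severe EAE 1 to 4. The deposited lists give positions without strand, score or read count, so the sequencing depth behind a footprint is unknown, a missing footprint does not show that hnRNP A1 was absent, and the intervals given for shares cover counting error only. Without strand, a footprint over genes on both strands cannot be assigned: 364 of the 2565 5′ UTR footprints (14.2%) overlapped another gene, 259 (10.1%) one on the opposite strand, and 13 (0.507%) an annotated small RNA. Of the 2433 footprints of 30 nt or more, 208 (8.55%) had a central 30-nt sequence with a further exact copy in the genome. All 10 neuron markers, all 10 oligodendrocyte markers and 9 of 10 astrocyte markers of a list of cell type genes carried coding footprints.

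A typical 5′ UTR footprint was a short interval close to the start codon that stopped where an exon stopped. Its length had a median of 111 nt, with the middle 50% between 62 and 142 nt and extremes of 15 and 683 nt. Of the 2529 footprints that lay in the 5′ UTR of a single gene, 1495 (59.1%) stayed inside the 5′ UTR, 789 (31.2%) ran on into coding sequence, 224 (8.86%) reached an intron and 136 (5.38%) began ahead of the annotated transcript start. The other 36 footprints lay in 5′ UTRs of more than 1 gene. The median distance from the midpoint to the start codon was 73 nt along the spliced transcript, and 1290 footprints (51.0%) ended within 2 nt of the downstream edge of an exon. The 1398 genes concerned had long 5′ UTRs, with a median of 269.5 nt, against 168 nt for the 6164 genes with coding but no 5′ UTR footprints. A 5′ UTR made of several exons was annotated in 51.0% of the former and 33.4% of the latter. A gene enters the former set by a midpoint in its 5′ UTR, and a longer 5′ UTR offers more places for one. Both contrasts are therefore shaped by the selection and were not tested. The share of transcripts beginning with C and 4 pyrimidines, as terminal oligopyrimidine mRNAs of the translation machinery do, was 2.72% and 2.24%.

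Footprints crowded towards the start codon in all of the mice tested. Each transcript's spliced 5′ UTR was divided at its centre, and the 50% of its length next to the start codon is called the start-codon side here. In the naïve mice, 72.5%, 69.8% and 74.6% of midpoints lay on the start-codon side. In mild EAE the shares were 80.7%, 78.8% and 77.7%, and in severe EAE 1, 3 and 4 they were 69.7%, 68.8% and 77.0%. The eligible bases of the same transcripts, those of the 5′ UTR outside coding sequence and 3′ UTR, lay there in 49.0% to 50.1% of cases. Every mouse tested thus stood above its own reference, although severe EAE 3 rests on 16 footprints. The excess was 24.9 ± 4.50 percentage points (SD, n = 9 mice, higher in 9 of 9, two-sided exact sign-flip permutation test, p = 0.00391, the smallest it can give). Severe EAE 2 held 6 such footprints, fewer than the minimum of 10, and was left out of this and the other tests within mice. Pooled over mice, the share of midpoints was higher in each successive decile of the 5′ UTR length. It rose from 1.54% at the cap to 21.0% at the start codon, while the bases were spread nearly evenly. The last decile held 11.2% in severe EAE 1, 6.25% in severe EAE 3 and 16.5% to 24.2% in the other mice tested. A midpoint near the cap needs a short footprint or one that starts ahead of the transcript, which holds the first deciles down. Midpoints and bases were therefore also limited to positions where a footprint of equal length stays inside an exon. The excess was then 23.8 ± 5.84 points (SD, n = 9, exact permutation p = 0.00391), lowest in severe EAE 1 at 10.3.

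The exon edges moved with this position. Among footprints with neither end within 2 nt of an exon edge at an intron, the excess on the start-codon side was 13.5 ± 5.67 points (SD, n = 9, exact permutation p = 0.00391), which is lower than over all footprints. It was 29.0 ± 5.06 points for 5′ UTRs in a single exon (p = 0.00391, exact, n = 9). Where a 5′ UTR was spread over several exons, 24.4% of footprints lay in the exon that holds the start codon, and within mice this was 2.96 ± 2.73 points above the share of eligible bases there (SD, n = 8 mice with 10 or more such footprints, higher in 7, exact p = 0.0234). Severe EAE 3, with 9 such footprints, and severe EAE 2, with 2, were left out. Both lay below their eligible bases, by -15.2 and -25.8 points. Midpoints within 100 nt of the start codon made up 58.8% of the total. The share was 31.3% in severe EAE 3, where 32.7% of eligible bases lay within that distance, and 48.3% to 70.5% in the other 8 mice tested, all above their eligible bases.

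**Figure D1:**
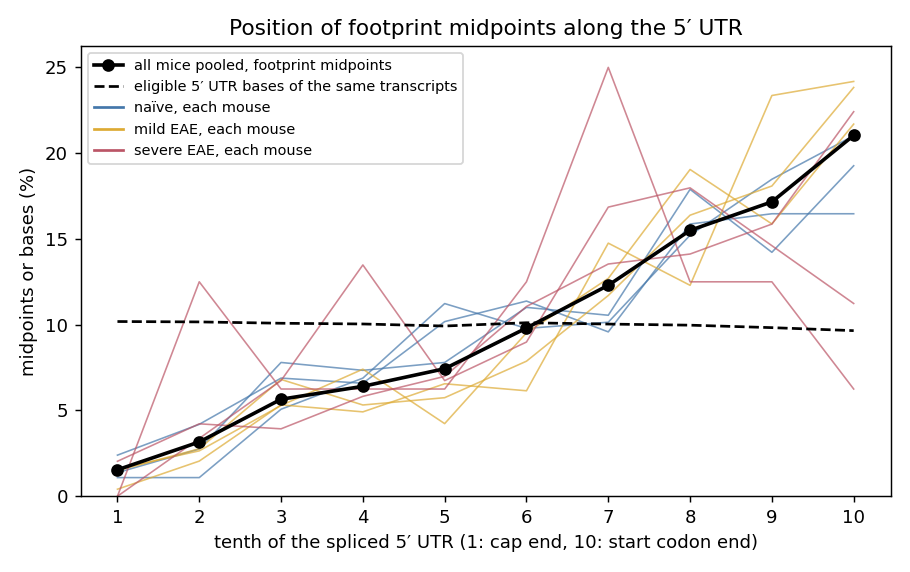
Share of footprint midpoints (y axis, %) in each decile of the spliced 5′ UTR (x axis, from the cap end at 1 to the start codon end at 10). Thin lines are the 9 mice with at least 10 footprints, coloured by group, the thick line pools all mice, and the dashed line gives the eligible bases of the same transcripts; the pooled share climbs from 1.54% to 21.0% while the dashed line stays near 10% per decile.

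Compared with footprints in coding sequence, those in 5′ UTRs were longer, less often shared between mice and less often bounded by exon edges. Their median length was 104.5 to 116.5 nt in naïve mice, 82 to 115 nt in mild EAE and 112 to 133 nt in severe EAE 1, 3 and 4. The coding medians lay between 80 and 90 nt in the same mice. The difference was 0.37 ± 0.18 on the log2 scale (SD, n = 9, longer in 9 of 9, exact sign-flip permutation p = 0.00391, adjusted p = 0.00521 over 4 comparisons). It was 0.24 with only footprints that lay whole inside annotated 5′ UTR exons (exact p = 0.043, n = 9). Against 3′ UTR footprints the sign turned, with 5′ UTR footprints shorter by -0.38 ± 0.22 on the log2 scale in 9 of 9 mice (adjusted p = 0.00521, exact permutation).

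Recurrence was read as the percentage of a mouse's footprints that overlapped any footprint of another mouse by at least 2 nt. For 5′ UTR footprints it was 60.7%, 40.3% and 64.3% in the naïve mice, 68.0%, 68.1% and 51.2% in mild EAE, and 58.9%, 56.3% and 49.4% in severe EAE 1, 3 and 4. Coding footprints of the same mice reached 57.5% to 83.7%. The 5′ UTR value was lower by -15.4 ± 4.93 points (SD, n = 9, lower in 9 of 9, exact permutation p = 0.00391, adjusted p = 0.00521). Against 3′ UTR footprints the difference was 0.152 ± 9.67 points (higher in 4 of 9 mice, exact p = 0.973), which was well inside the spread between mice. Footprints with an end within 2 nt of an exon edge made up 42.4% to 78.1% of the 5′ UTR footprints per mouse, 23.8 ± 7.71 points fewer than among coding footprints (a difference of -23.8 points, 0 of 9 mice above) and 51.8 ± 9.04 points more than among 3′ UTR footprints (9 of 9 above). Both exact permutation p-values were 0.00391 (n = 9).

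**Figure D2:**
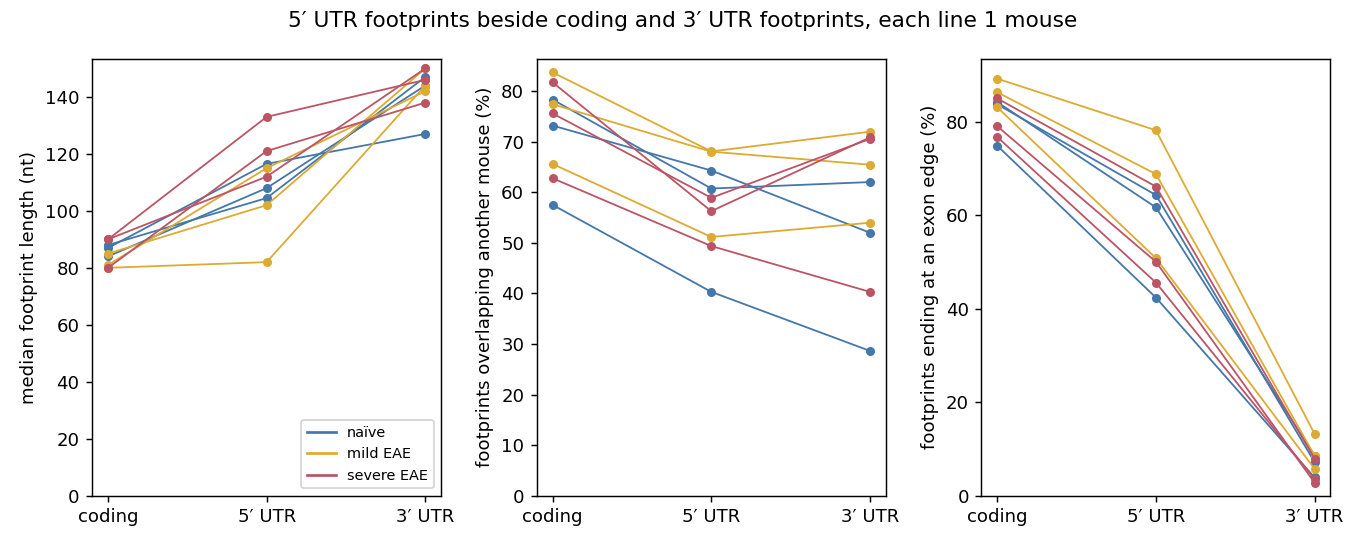
Median footprint length (left, nt), percentage of footprints that overlap one of another mouse (centre) and percentage with an end within 2 nt of an exon edge (right) for coding, 5′ UTR and 3′ UTR footprints. Each line is 1 of the 9 mice with at least 10 5′ UTR footprints, coloured by group; 5′ UTR lengths lie between the coding and the 3′ UTR lengths in each of the 9 mice, and in all of them fewer footprints end at an exon edge than in coding sequence.

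The bases under 5′ UTR footprints were slightly richer in G and C and poorer in AUG than the bases of the same 5′ UTRs under no footprint. GC content under footprints was 61.8%, 66.3% and 61.9% in the naïve mice, 63.1%, 66.1% and 62.8% in mild EAE, and 66.5%, 69.5% and 63.2% in severe EAE 1, 3 and 4. The bases under no footprint of any mouse had 60.0% to 66.8%, and the difference was 1.99 ± 1.98 points (SD, n = 9, higher in 8 of 9, exact sign-flip permutation p = 0.0117). Mild EAE 1 was the exception, at -0.727 points, and with severe EAE 2 included the difference was 1.15 points (exact p = 0.303, n = 10). On the start-codon side alone the GC difference was 5.69 ± 2.67 points and was positive in 9 of 9 mice (exact p = 0.00391). Equally long genome windows 200 nt from each footprint need not lie in a 5′ UTR. Against those the GC difference was 5.75 points (exact p = 0.00391, n = 9).

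AUG, the triplet that can open an upstream reading frame, occurred 3.52 to 6.14 times per 1000 nt under footprints. It occurred 4.98 to 8.25 times per 1000 nt under no footprint. The log2 ratio was -0.42 ± 0.27 (SD, n = 9, below 0 in 9 of 9, exact permutation p = 0.00391, adjusted p = 0.0117 over 3 motifs). Its range was -0.96 in naïve 2 to -0.036 in severe EAE 4, the mouse with the most footprints. In severe EAE 2, left out of the test, the AUG ratio was 0.45. On the start-codon side the log2 ratio of AUG was -0.54 ± 0.39 (n = 9, below 0 in 8 of 9, adjusted p = 0.0234, exact). UAG, the core of the known hnRNP A1 motif, was not denser under footprints. It occurred 5.13 to 7.62 times per 1000 nt there and 4.07 to 8.01 times outside, with a log2 ratio of -0.10 ± 0.41 (below 0 in 7 of 9 mice, exact p = 0.547, adjusted p = 0.820). Severe EAE 3 decided this value: without it the log2 ratio was -0.22 (exact p = 0.0156, n = 8), on the side of fewer UAG under footprints. The motif AGGU gave 0.09 ± 0.45 (adjusted p = 0.836, exact, n = 9), and -0.055 without severe EAE 3 (exact p = 0.336, n = 8), a mouse left out here after seeing the data. Motifs were counted on the gene's strand only.

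The share of footprints in 5′ UTRs was low everywhere, and its differences between groups did not pass the test. It was 1.28%, 1.95% and 1.60% of all footprints in naïve 1 to 3 and 1.70%, 1.96% and 1.95% in mild EAE 1 to 3. In severe EAE 1 to 4 it was 3.37% (95% exact binomial interval 2.72% to 4.13%), 2.87% (1.06% to 6.14%), 2.38% (1.36% to 3.83%) and 2.19% (2.04% to 2.36%). The severe EAE values did not overlap those of the naïve mice, and the 3 highest belonged to the 3 shortest lists. The mean was 2.35 ± 0.588% in EAE (SD, n = 7) and 1.61 ± 0.334% in naïve mice (n = 3), a difference of 0.737 points (two-sided exact permutation test, p = 0.075, adjusted p = 0.1 over 4 comparisons, smallest possible 0.00833). Severe EAE exceeded naïve by 1.09 points (exact p = 0.0571, adjusted p = 0.1). Without the 3 mice with fewer than 100 5′ UTR footprints, severe EAE 1, 2 and 3, the difference between EAE and naïve was 0.342 points, and without mild EAE 1 it was 0.845 points and passed the threshold before adjustment (exact p = 0.0357, n = 9).

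Among footprints in mRNA exons, the 5′ UTR share was 2.54%, 4.11% and 2.62% in naïve mice, 2.19%, 3.12% and 2.77% in mild EAE, and 5.39%, 6.82%, 4.64% and 3.21% in severe EAE. The EAE mean was 0.930 points above the naïve mean (exact permutation p = 0.383, n = 3 and 7), and without the 3 short lists the sign turned, to -0.267 points. Eligible 5′ UTR bases make up 9.05% of the annotated mRNA exon bases, more than the footprint share in any mouse. The number of 5′ UTR footprints followed list length, with 219, 340 and 280 in naïve mice, 247, 191 and 477 in mild EAE, and 90, 6, 16 and 699 in severe EAE. The EAE minus naïve difference of its mean was -33.1 footprints (exact p = 0.825, n = 3 and 7), and it was 7 without severe EAE 2 and 5.33 without severe EAE 3. None of 7 within-mouse differences (GC, the 3 motifs, start-codon side, recurrence and length) differed between naïve and EAE mice (lowest exact p = 0.107, adjusted p = 0.55, n = 3 and 6, tested by exact permutation).

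**Figure D3:**
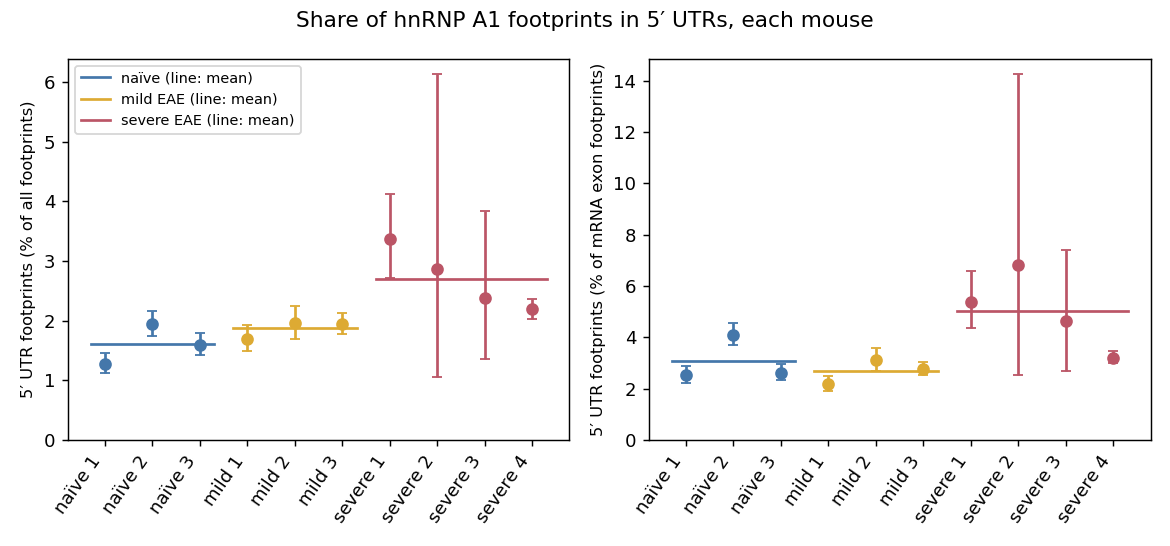
Share of 5′ UTR footprints (y axis, %) among all footprints (left) and among 5′ UTR, coding and 3′ UTR footprints together (right) in each mouse, with 95% exact binomial intervals as bars and group means as lines. The 4 severe EAE mice lie above the 3 naïve mice on the left, and the widest interval is that of severe EAE 2, whose list was the shortest.

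Most genes were seen in a single mouse. Of the 1398 genes, 934 (66.8%) had a 5′ UTR footprint in 1 mouse, 197 in 3 or more, and 7 in 7 or more. The gene found in the most mice was Slc1a2, the main glutamate transporter of astrocytes, in 8 of 10. Its footprints covered 166, 0 and 275 nt of the 5′ UTR in naïve 1 to 3, then 195, 184 and 195 nt in mild EAE, and 170, 0, 176 and 306 nt in severe EAE. They fell into separate sites of the single 626-nt 5′ UTR exon on chromosome 2. The site farther from the start codon (chr2:102658752-102658954, midpoints 428 to 445 nt away) held mild EAE 1 to 3 and severe EAE 1, with 166 nt common to all 4 mice. The nearer site (chr2:102658979-102659302, 75 to 181 nt away) held naïve 1, naïve 3, severe EAE 3 and severe EAE 4. No mouse had both. With presence at a single gene chosen for its recurrence, no test was made.

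Lgi3, a secreted leucine-rich repeat protein of the nervous system, had 1 site in 7 mice, with 60 nt common to the 7 footprints. Lgi3 was covered over 183, 135 and 159 nt in naïve mice, 0, 120 and 170 nt in mild EAE, and 154, 0, 0 and 163 nt in severe EAE. Thra, the thyroid hormone receptor α, had 3 sites over the 2 exons of its 430-nt 5′ UTR. The central one (chr11:98753290-98753424) was present in 7 mice, the cap-side one in 5, and the one over the start codon in mild EAE 1 and severe EAE 4. Cadm2, a synaptic adhesion molecule, was found in 7 mice, 6 of them at a site 415 to 470 nt from the start codon.

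**Figure D4:**
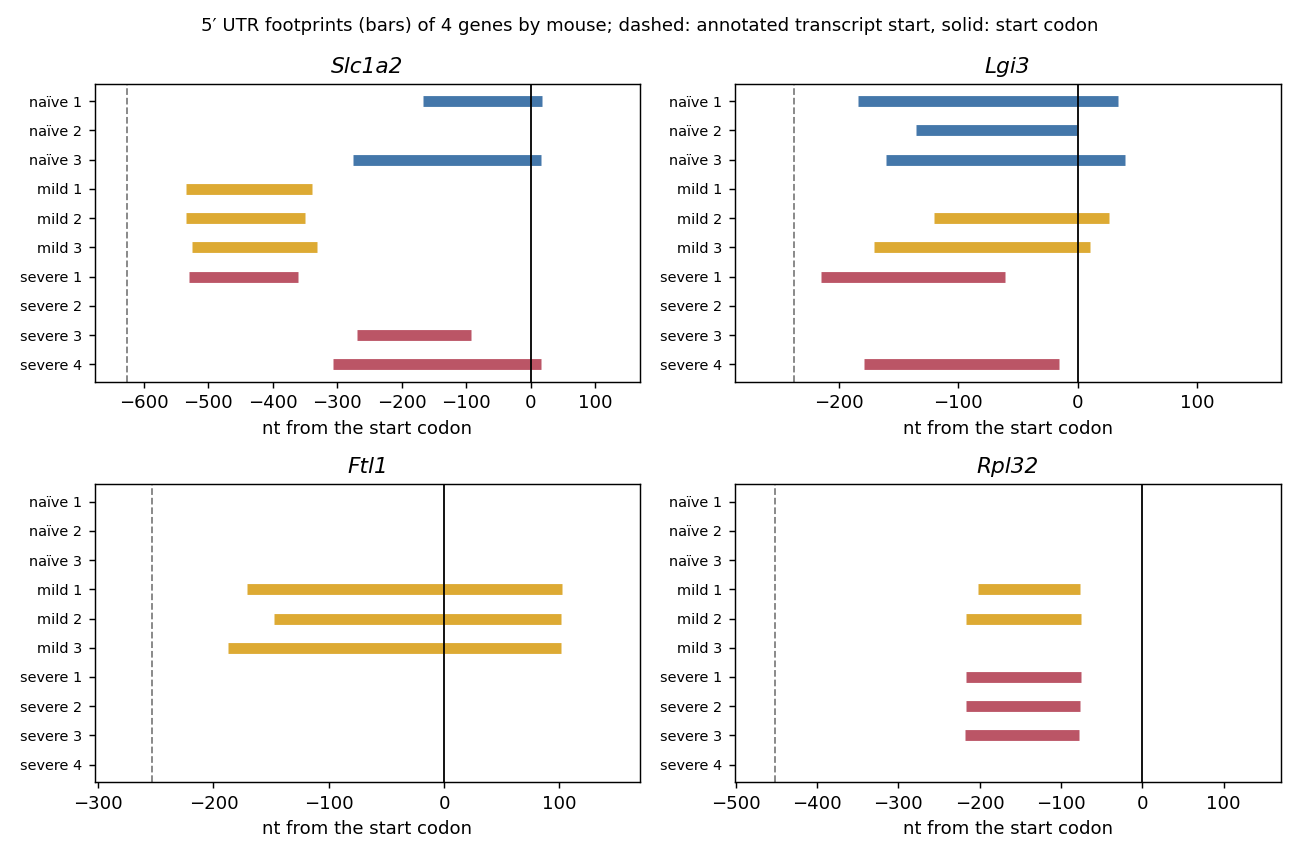
Footprints (bars) on the 5′ UTRs of Slc1a2, Lgi3, Ftl1 and Rpl32 in each of the 10 mice, drawn by distance from the start codon (x axis, nt; the solid line is the start codon, the dashed line the annotated transcript start). The Slc1a2 bars fall into 2 separate sites held by different mice, Lgi3 has bars in 7 mice of all 3 groups, Ftl1 has them in mild EAE 1 to 3 only, and the 5 Rpl32 bars have nearly the same ends.

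Gprasp1 and Gprasp2, which encode proteins that sort G protein-coupled receptors, were found in the same 7 mice. The stretches compared from their first sites are 121 of 124 bases identical (97.6%), and the 30-nt sequence shown has 2 exact matches in the genome, so a footprint of one may come from RNA of the other. All Gprasp2 sites also lay within the annotated bounds of Bhlhb9. Among the other recurrent genes, Ube3a (a ubiquitin ligase that neurons express from the maternal allele) was covered in 6 mice over 204 to 639 nt, at sites that also lie in 9330162G02Rik. Lxn, a carboxypeptidase inhibitor, was found in 6 mice at a site shared with Gfm1. Gprasp2, Ube3a and Lxn keep no mouse when footprints over a second gene are left out.

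Several of the recurrent genes belong to neurons. Glra1, the α1 subunit of the spinal glycine receptor, was covered over 306, 0 and 291 nt in naïve mice, 115, 134 and 345 nt in mild EAE, and 0, 0, 0 and 395 nt in severe EAE. Map2, the microtubule protein of dendrites, had 5 sites in 6 mice, the commonest being an exon 59 to 66 nt from the start codon in 5 mice. Kcnc1, a voltage-gated potassium channel, had 4 sites in 5 mice along a 1181-nt 5′ UTR. Eef1a2, the elongation factor of neurons and muscle, was covered in 6 mice.

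Further recurrent genes had sites in 5 or 6 mice. Sgms1, a sphingomyelin synthase, had a 43-nt exon covered exactly in 5 mice (chr19:32247994-32248036), with neighbouring 5′ UTR exons covered in 5 and 6 mice. Pnisr, a nuclear protein with serine and arginine repeats, had an 82- to 90-nt footprint in naïve 1 to 3, mild EAE 1 and 2 and severe EAE 4. Fryl had 3 exons marked in 6 mice. Tmsb10, an actin-binding thymosin, had a short site in 6 mice, with lengths of 33 to 66 nt and a second exact genome match. Mbnl2, a splicing regulator, had 2 sites in 5 mice, and BC005537 had 3 in 5 mice. Slc4a4, a sodium bicarbonate transporter, had a site 44 to 66 nt from the start codon in 5 EAE mice and no naïve mouse, and another, 264 to 338 nt away, in naïve 3, mild EAE 3 and severe EAE 4.

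**Figure D5:**
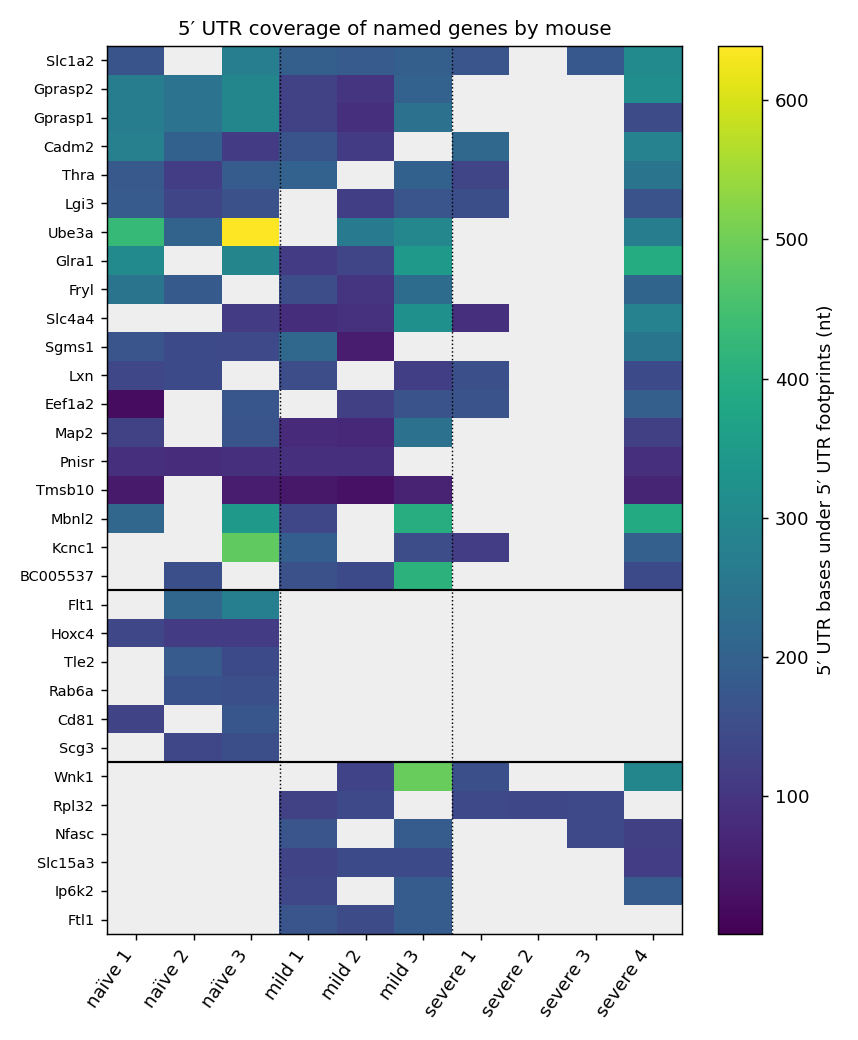
5′ UTR bases under 5′ UTR footprints (colour, nt; grey is none) for the genes named by these rules (rows) in the 10 mice (columns). The upper block holds genes found in the most mice, the centre block 6 genes of at least 2 naïve and no EAE mice, and the lower block 6 genes of at least 3 EAE and no naïve mice, so the empty columns of the lower blocks are fixed by the choice; severe EAE 2 is grey in all rows but Rpl32.

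Few 5′ UTR sites divided the mice by disease. Overlapping footprints of all mice merged into 82220 regions, of which 2.24% held at least 2 naïve mice and no EAE mouse. Among the 1745 regions with a 5′ UTR footprint this pattern was met by 29 (1.66%). At least 3 EAE mice and no naïve mouse were met by 2.86% of all regions, and by 62 regions with a 5′ UTR footprint (3.55%) against 4.52% of regions with a coding footprint. At least 5 of 10 mice shared 4.12% of all regions, and 68 of the 5′ UTR regions (3.90%) against 5.98% of coding regions. The 5′ UTR percentages were thus near those of all regions. By gene, 17 of 1398 (1.22%) had 5′ UTR footprints in at least 2 naïve mice and no EAE mouse. Another 38 genes (2.72%) had them in at least 3 EAE mice and no naïve mouse, and 283 in mice of both kinds. The rules ask for different numbers of mice from groups of different size, so 1.22% and 2.72% cannot be compared with each other. No matching gene share outside 5′ UTRs is given beside them.

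The genes named here as naïve only or EAE only were picked for that pattern, so their presence is a description. Hoxc4, a homeobox factor of spinal cord patterning, was covered over 136, 112 and 113 nt in naïve 1 to 3, with no base common to all 3. Flt1, a receptor of vascular endothelial growth factor, was covered over 211 and 277 nt in naïve 2 and 3, and its shared stretch holds 3 UAG. Tle2 (a transcriptional corepressor), Rab6a (a Golgi GTPase), Cd81 (a tetraspanin) and Scg3 (a secretory granule protein) each had footprints in 2 naïve mice. The Tle2 and Cd81 sites also overlapped Gm15917 and R74862. The Rab6a footprints, which had 4 nt in common, lay in the 5′ UTR of Mrpl48 as well.

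Of the genes found in EAE mice only, Rpl32 was met in the most. Its footprints measured 126 and 142 nt in mild EAE 1 and 2 and 142, 140 and 141 nt in severe EAE 1 to 3. They coincided with Snora7a, a 140-nt small nucleolar RNA that guides pseudouridylation and lies on the same strand, of which they covered 89.3% in mild EAE 1 and 100% in the other 4 mice. In severe EAE 2 the footprint had the same start and end as Snora7a. A ribosomal protein mRNA and the small nucleolar RNA inside its gene cannot be told apart here. Wnk1, a kinase that controls chloride transport, was covered over 129 and 491 nt in mild EAE 2 and 3 and 156 and 295 nt in severe EAE 1 and 4. Slc15a3, a lysosomal peptide and histidine transporter, was covered over 131, 145 and 145 nt in mild EAE and 116 nt in severe EAE 4. Nfasc, the adhesion molecule neurofascin of nodes of Ranvier, was covered over 169, 186, 143 and 121 nt in mild EAE 1 and 3 and severe EAE 3 and 4. Ip6k2, an inositol phosphate kinase, was covered over 138, 187 and 187 nt in mild EAE 1 and 3 and severe EAE 4.

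Ftl1, the ferritin light chain, is translated under control of an iron responsive element near the cap. Its footprints covered 170, 147 and 187 nt of the 253-nt 5′ UTR in mild EAE 1 to 3 and ran through the start codon to the end of the exon. The CAGUG of the element's loop, 92 nt from the annotated cap, lay under the footprints of mild EAE 1 and 3. The corresponding CAGUG of Fth1, Slc40a1 and Alas2 was covered in 0 of 10 mice. Ftl1 was the single member of this 5-gene list with a 5′ UTR footprint, and its site also overlaps Gm10252.

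Cytosolic ribosomal proteins, the products of terminal oligopyrimidine mRNAs, had a 5′ UTR footprint in 29 of 81 genes (35.8%), beside 1398 of 20899 genes with an annotated 5′ UTR (6.69%). Among genes with coding footprints, the shares were 28 of 74 (37.8%) and 16.7%. They made up 1.09%, 0.331% and 1.30% of the genes with a 5′ UTR footprint in naïve mice, 3.64%, 2.82% and 2.42% in mild EAE, and 2.38%, 16.7%, 7.14% and 2.74% in severe EAE, with no overlap between naïve and EAE mice. The 16.7% of severe EAE 2 and the 7.14% of severe EAE 3 rest on 1 gene each, Rpl32. In coding footprints the same group made up 0.740% to 1.24% of genes in naïve mice and 1.27% to 8.23% in EAE mice, also without overlap. Without Rpl32, an alternative chosen after seeing the data, the 5′ UTR shares did overlap: severe EAE 1 had 1 of 83 genes, severe EAE 2 had 0 of 5 and severe EAE 3 had 0 of 13, beside 3.20%, 2.27% and 2.42% in mild EAE and 2.74% in severe EAE 4. The groups were chosen with results of these mice known and were not tested.

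Apart from Rpl32, the ribosomal protein footprints named here were short and close to the start codon. Rps25 was covered over 53 and 18 nt in mild EAE 2 and 3 and 21 and 41 nt in severe EAE 1 and 4, and 0 nt in the naïve mice. Rpl38 was covered in naïve 1 and in mild EAE 1 to 3 over 19 to 33 nt. Rps20, Rpl37a and Rps15 each had 1 naïve, 1 mild EAE and severe EAE 4 mouse, with 15 to 31 nt covered. Counting only footprints of at least 30 nt left Rps25, Rpl38 and Rpl37a with 2 mice each, Rps20 with 1 and Rps15 with 0. Translation factors had 12 of 68 genes with 5′ UTR footprints (17.6%), led by Eef1a2 in 6 mice and Eef1a1 in 3, the latter in 0 with footprints of at least 30 nt. The respiratory chain had 8 of 93 (8.60%), close to genes at large, with Cox6b1 in 3 mice.

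The hnRNP and SR protein genes, which encode hnRNP A1 itself and other splicing factors, had 5′ UTR footprints in 11 of 31 (35.5%), beside 6.69% of all genes. Of the 28 with coding footprints 39.3% were marked, beside 16.7% of all such genes. Severe EAE 4, which had the most genes with 5′ UTR footprints, marked 9 of the 11, and each other mouse marked 0 to 2. Hnrnph1 was covered over 34, 33 and 34 nt in the naïve mice and 27 nt in severe EAE 4, and in no other EAE mouse. Hnrnpu was covered in naïve 1, mild EAE 2 and severe EAE 4. The Hnrnpa1 mRNA had 70 nt covered in severe EAE 4 only. Of 5 stress response genes known for upstream reading frames, 3 were marked: Atf4 in naïve 3, mild EAE 2 and severe EAE 4, and Atf5 and Ppp1r15b in 1 mouse each. Of 6 genes whose internal ribosome entry sites are linked to hnRNP A1, Srebf1 had 65 nt covered in mild EAE 3 and Xiap 56 nt in severe EAE 4.

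Cell type genes were marked in each class. Their shares stand beside 6.69% of all genes and 16.7% of genes with coding footprints, which were found on 10 of 10 neuron, 10 of 10 oligodendrocyte, 9 of 10 astrocyte and 14 of 15 microglia and leukocyte markers. Neuron markers had 5 of 10 with 5′ UTR footprints, among them the axonal growth protein gene Stmn2 (122 and 120 nt in naïve 1 and 2, 157 and 134 nt in mild EAE 1 and 2), Eno2 and Snap25. Oligodendrocyte markers had 4 of 10, led by the myelin gene Mobp in naïve 1 and mild EAE 1 to 3. Astrocyte markers had 6 of 10, led by Slc1a2. Microglia and leukocyte markers had 5 of 15, namely C1qa, C1qb, C1qc, Cd74 and Csf1r, while the other 10, Ptprc and Aif1 included, had none. These 5 genes code for complement C1q, the invariant chain of MHC class II and the receptor of colony-stimulating factor 1. The number of the 15 genes with a 5′ UTR footprint was 0 in each naïve mouse, 3, 1 and 2 in mild EAE, and 1, 0, 1 and 3 in severe EAE. Coding footprints were found in 0, 1 and 0 of the genes in naïve mice and in 12, 7, 10, 4, 0, 4 and 13 in EAE mice. In whole cord, more cells of a type and more RNA per cell cannot be told apart. C1qa was covered over 58 and 52 nt in mild EAE 1 and 3 and 21 and 22 nt in severe EAE 3 and 4, so that footprints of at least 30 nt left 2 mice.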

How the data were processed

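Libraries were anti-hnRNP A1 immunoprecipitations from 10 spinal cords; input and IgG libraries were not analysed here. Per the authors' methods, reads were demultiplexed with bcl2fastq (2.19.0.316), trimmed with fastp, assembled with rnaSPAdes and aligned to GRCm38 with minimap2 (2.17); sites in input or IgG were subtracted and intervals merged without strand (bedtools). The deposited values are interval positions (chromosome, start, end), with no count or score. Because contigs were aligned, exon ends can bound a footprint, and no height can be compared.

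Midpoints were placed on GENCODE M21 (GRCm38, patch 6); 568 footprints on 17 unmatched sequence names stayed unplaced. Position, GC and motifs were read on the best-ranked transcript whose 5′ UTR held the midpoint, and 0.5 was added to motif counts. This was a principal transcript for 89.8% of the 2529 footprints in the 5′ UTR of a single gene. Groups followed the labels. Between mice, two-sided exact permutation tests of means were used; within mice, exact sign-flip permutation tests over mice with at least 10 members, with Benjamini-Hochberg adjustment and a threshold of 0.05. Python 3.11.15, numpy 2.4.6, scipy 1.17.1 and matplotlib 3.10.9 were used, and the measures were tested on simulated data. Named genes were the 20 in the most mice (ties by covered nt), the 6 best covered in at least 2 naïve and no EAE mice, the 6 in at least 3 EAE and no naïve mice, and list genes in at least 3 mice or leading a list. Members and lists were chosen with earlier results of these data known. Alternatives varied footprint length, merging, annotation, membership, overlap, comparison bases and mice. Results for some genes that these rules name are not reported here. Sequences came from the GRCm38 genome.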

Additional observations from a re-analysis of the deposited data

Results flagged for a closer look

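Among 32 groups of values examined for a mouse far from the others, 7 held one. Chance gives about 1 in 20 independent groups. These groups share mice and hold linked measures, so 7 of 32 cannot be read as an excess. Severe EAE 4 stood apart from the other severe EAE mice with 699 5′ UTR footprints, and its length difference to coding footprints was the smallest of the 4, at 0.32 on the log2 scale. The other 5 were values of severe EAE 2 among the EAE mice, all resting on 6 footprints. GC content under its footprints was 53.6%, a difference of -6.45 points to the bases of the same 5′ UTRs under no footprint. It had 13.3 UAG and 15.0 AUG per 1000 nt under footprints, and its 5′ UTR footprints overlapped other mice more often than its coding footprints did, by 17.3 points. Of its 6 footprints, 4 had a 30-nt centre with another exact copy in the genome. None of the 7 within-mouse differences compared between naïve and EAE mice passed the exact permutation test, at an unadjusted p of 0.107 or more.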

How the results depend on the processing

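The start-codon side and the recurrence and length differences to coding footprints kept their sign and their side of the threshold in all 10 fits that left out 1 mouse each, with ranges of 24.1 to 25.6 points, -17.0 to -14.1 points and 0.34 to 0.41 (log2). Severe EAE 2 was already outside these tests, so the fit without it could not change the start-codon side or length result. Against 3′ UTR footprints recurrence and length reversed, to 0.152 points and -0.38. GC was 1.15 points with every mouse included (exact p = 0.303, n = 10). UAG passed the threshold at -0.45 against genome windows 200 nt away (exact p = 0.0117, n = 9), which need not lie in a 5′ UTR. It also passed at -0.21 with at least 100 footprints per mouse (exact p = 0.0313, n = 7). Without severe EAE 3 it passed at -0.22, and leaving out 1 mouse gave a range of -0.22 to -0.044. Leaving out 1 mouse gave 0.566 to 0.906 points for the share of all footprints, which passed without mild EAE 1 (0.845 points, exact p = 0.0357, n = 9), 0.463 to 1.44 points for the share in mRNA exons, and -108.5 to 7 for the number, positive without severe EAE 2 (7) or severe EAE 3 (5.33). Without the 3 short lists, an alternative chosen after seeing the data, the mRNA exon share became -0.267 points and the number 123.8; the other added alternatives, also chosen after seeing the data, included the start-codon side alone, single-exon 5′ UTRs, no exon edges, and equal-length positions in exons, with 23.8 points for the last. The causes were not tested.

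With whole footprints in the 5′ UTR, the share of all footprints differed by 0.361 points (exact p = 0.417, n = 10), the mRNA exon share by 0.320 points (exact p = 0.7, n = 10) and length by 0.24 (log2, exact p = 0.043, n = 9). GC was 5.75 points against the genome windows 200 nt away (exact p = 0.00391, n = 9). Leaving out 1 mouse, chosen after seeing the data, gave -0.055 to 0.13 for AGGU, and turned its sign without severe EAE 3 (-0.055).

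With the label numbers 1, 2 and 3 as a replicate block over 3 pairs, EAE minus naïve was 1.04 points, 1.71 points and -165.3 footprints (exact p = 0.25, 0.5 and 0.25, smallest possible 0.25). Nothing in the labels ties equal numbers, and the pairing changed no call. Of 49 named genes, the number of mice moved by over 1.5 times for 15 when whole footprints had to lie in the 5′ UTR, for 9 when footprints over another gene were dropped and for 6 with footprints of at least 30 nt. Any change was seen in 25, 10 and 9 of them.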
